A study of Mus musculus with 2 samples.

Results

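Creatine kinases, adenylate kinases and the genes that supply creatine were examined in cells sorted from the embryonic sinoatrial node, the pacemaker tissue of the heart, with and without the transcription factor gene Isl1. Members were the rows of the gene table whose symbol was one of 9 listed names, namely Ckm, Ckb, Ckmt1, Ckmt2, Ak1, Ak3, Ak4, Gatm and Slc6a8. Of these, 8 were among the 12446 symbols of the table, and Ckmt1 was not measured. Both groups were ICR mouse embryos that carried Hcn4-CreERT2, a recombinase that tamoxifen switches on in cells with active Hcn4, a pacemaker channel gene, and the Rosa-tdTomato reporter. The control group was Isl1+/+ and the Isl1 mutant group Isl1f/f, and both received tamoxifen at E10.5, 36 hours before tissue was taken, with the stage labelled E12.5. Embryos of a genotype were pooled, endothelial cells were depleted through CD31, and red fluorescent cells were sorted, so each group is 1 library of pooled cells. With single libraries the spread between replicates is unknown, so differences carry no test and are described by their size. Values were taken as RPKM, read numbers scaled to exon length and library total. An interval beside a ratio is an exact 95% binomial interval, which covers the error of counting at most. It treats reads as independent, which PCR copies of a molecule are not, so it may be too narrow even for that. Variation between embryos, pools and preparations is left out.

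These genes keep ATP available where it is used. Creatine kinases move a phosphate between ATP and creatine, so that phosphocreatine made at mitochondria can rebuild ATP at the contractile filaments and ion pumps. Adenylate kinases convert a pair of ADP molecules into ATP and AMP (or, in the mitochondrial matrix, use GTP), and the AMP formed is the signal read by the AMP-activated kinase. Creatine itself is made in successive steps by Gatm and Gamt, chiefly in other organs, and enters muscle cells through the transporter Slc6a8.

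With the values taken as RPKM, their steps gave totals of 110117186 control reads and 119018888 mutant reads. Isl1 measured 7.65 RPKM in control cells and 1.52 RPKM in mutant cells, which is 5.02-fold lower, and which part of the gene is floxed is not given in the labels. Ratios between the libraries moved with expression level, the median log2((mutant RPKM + 1)/(control RPKM + 1)) being -0.56 in the lowest and 0.02 in the highest of 10 equally filled bins of level. A gene was called higher or lower when this value reached 2-fold, or 1.5-fold as a second size, and the gene reached 5 RPKM in at least 1 library.

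Of the 8 measured members, 6 were higher and 2 lower in the mutant library, with a median log2 ratio of 0.28 on the log2(RPKM + 1) scale, beside -0.18 over all 12446 symbols. Over all symbols, 32.9% were higher and 67.1% lower. Only 6 members reached 5 RPKM in at least 1 library, since Ckmt2 and Slc6a8 stayed below it in both. Of these 6, the muscle creatine kinase gene Ckm and the matrix adenylate kinase gene Ak4 were called 2-fold higher, against 1.01% of the 6343 genes at that level. With a pseudocount of 5 RPKM the Ak4 value was 0.74 (log2), which ends its 2-fold call. None (0 genes) was called 2-fold lower, against 2.68%. At 1.5-fold the brain-type creatine kinase gene Ckb joined them, so that 3 were higher, against 3.77%, and Gatm was the 1 lower member, against 11.8%. With 6 genes chosen with earlier results known, these counts describe the genes and support nothing further.

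The promoters of the 4 members that differed by 1.5-fold or more are shown because 3 of these genes were higher and 1 was lower. They are the 250 bases before the annotated start in RefSeq's promoter table on build GRCm38.p6, in the direction of the gene, and 8 of the 9 members matched an entry, the exception being Slc6a8. Capitals mark matches on either strand to 4 motifs. The E-box was searched as CANNTG. The hypoxia response core was searched as ACGTG, with G also allowed in place of the first letter. The TATA box was searched as TATAAA, and the core of the MEF2 site is given by name only. For Ak4, which has 4 entries, the most upstream one is printed.
Ckm, chr7:19410844-19411093, plus strand: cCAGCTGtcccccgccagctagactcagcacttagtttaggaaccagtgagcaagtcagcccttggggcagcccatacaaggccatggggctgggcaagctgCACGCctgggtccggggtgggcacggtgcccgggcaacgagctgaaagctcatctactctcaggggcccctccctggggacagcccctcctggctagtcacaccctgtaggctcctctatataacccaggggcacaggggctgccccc
Ckb, chr12:111672339-111672588, minus strand: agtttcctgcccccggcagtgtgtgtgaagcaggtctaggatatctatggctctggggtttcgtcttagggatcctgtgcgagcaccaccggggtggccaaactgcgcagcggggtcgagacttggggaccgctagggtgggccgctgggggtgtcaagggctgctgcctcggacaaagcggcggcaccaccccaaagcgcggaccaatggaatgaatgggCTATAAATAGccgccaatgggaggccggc
Ak4, chr4:101419039-101419288, plus strand: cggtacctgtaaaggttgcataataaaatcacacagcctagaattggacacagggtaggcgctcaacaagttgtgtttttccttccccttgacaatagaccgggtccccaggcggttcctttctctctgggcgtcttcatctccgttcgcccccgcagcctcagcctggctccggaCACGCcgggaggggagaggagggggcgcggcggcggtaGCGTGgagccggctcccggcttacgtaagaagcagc
Gatm, chr2:122611278-122611527, minus strand: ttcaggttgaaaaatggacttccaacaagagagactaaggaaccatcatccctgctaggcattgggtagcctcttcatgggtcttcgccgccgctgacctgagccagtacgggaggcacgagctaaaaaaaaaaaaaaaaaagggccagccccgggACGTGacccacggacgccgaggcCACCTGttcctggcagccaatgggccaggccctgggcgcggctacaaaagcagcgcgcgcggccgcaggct

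The Ckm stretch held 1 E-box and 1 hypoxia response core. In the Ckb stretch the TATA box lay inside the MEF2 core, starting 28 bases before the gene's start. The Ak4 stretch held 2 hypoxia response cores and no E-box, and Gatm, the member that was lower, held 1 of each. Among all 32851 promoter entries cut to the same length, 66.2% held an E-box, 38.6% a hypoxia response core, 12.4% the TATA box and 3.20% the MEF2 core. No motif was shared by all 3 genes that were higher, and a match is only a run of letters.

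**Figure D1:**
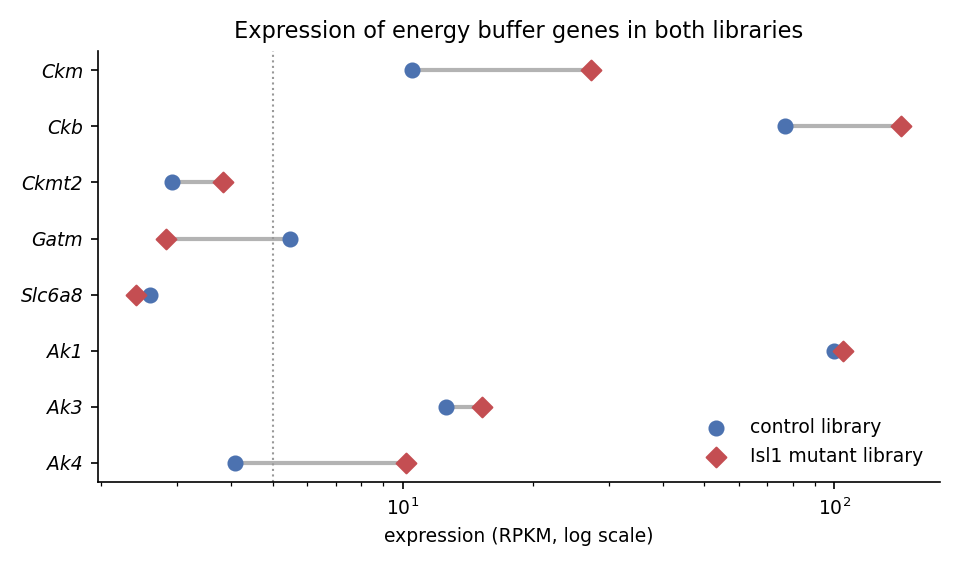
Expression of the 8 measured energy buffer genes in RPKM on a log axis, with a circle for the control library and a diamond for the Isl1 mutant library (1 library each), and a dotted line at 5 RPKM. Ckb and Ak1 are the most abundant in both libraries, and Gatm and Slc6a8 are the genes whose diamond lies to the left.

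Creatine kinases were higher in the mutant library in 3 of 3 measured cases, by unequal amounts. Ckb, the cytosolic form first identified in brain and also made in the embryonic heart, measured 76.9 RPKM in control cells and 143 RPKM in mutant cells. The mutant value was 1.86-fold higher (interval 1.82 to 1.90, from at least 13462 and 27067 reads), rank 85 from the highest among the 6343 genes. Ckb (chromosome 12, 112907566 to 112910549, mm9) overlapped no other gene of the table.

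Ckm, the cytosolic form of mature muscle, which also binds the M-band of the sarcomere, went from 10.53 to 27.3 RPKM. Its ratio of 2.59 (interval 2.45 to 2.74, from at least 1631 and 4566 reads) was the highest of the 8 members and ranked 37 of the 6343 genes on the log2(RPKM + 1) scale. The gene lies on chromosome 7, 19996443 to 20008190, mm9. An opposite-strand gene, A930016O22Rik, lies within it and went from 5.27 to 13.1 RPKM, 2.49-fold higher. Because the libraries do not record strand, reads of these overlapping genes cannot be told apart.

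Ckmt2, the mitochondrial form of sarcomeric muscle, was low in both libraries, at 2.92 RPKM in the control and 3.84 RPKM in the mutant. The ratio was 1.32 (interval 1.17 to 1.49, on at least 470 and 669 reads), and the gene was below the level needed for a call. The log2 ratio of Ckmt2 was 0.31, whereas the genes in its bin of level had a median of -0.21. The opposite-strand gene 1700119I11Rik, inside Ckmt2, was at 1.78 and 1.76 RPKM.

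Ckb supplied most of the creatine kinase transcript in both libraries. Summed over the 3 genes, the level went from 90.3 to 174 RPKM, 1.93-fold higher. Ckb made up 85.1% of this sum in control and 82.1% in mutant cells, while the share of Ckm went from 11.7% to 15.7% and that of Ckmt2 from 3.23% to 2.21%. Ckm per Ckb was 0.137 in the control and 0.191 in the mutant, a log2 difference of 0.48 with a counting standard error of 0.044. Ckm per Ckmt2 went from 3.61 to 7.10, a log2 difference of 0.98 with a counting standard error of 0.096.

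**Figure D2:**
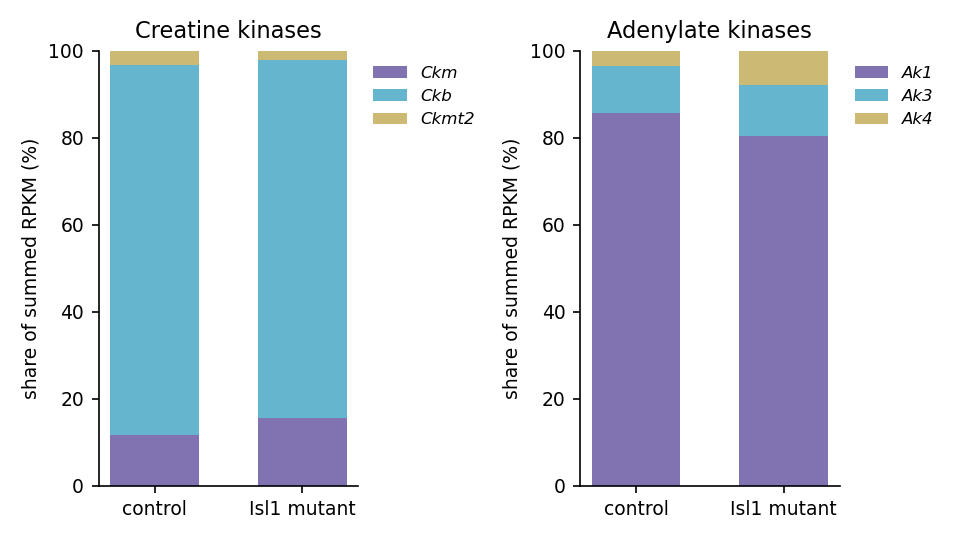
Share of each gene, in percent, in the summed RPKM of the creatine kinase genes (left) and of the adenylate kinase genes Ak1, Ak3 and Ak4 (right), with 1 bar per library. Ckb fills 85.1% and 82.1% of the creatine kinase bars, and the Ak4 share of the adenylate kinase bars goes from 3.52% to 7.80%.

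The adenylate kinases Ak1, Ak3 and Ak4 were higher in 3 of 3 cases, but only Ak4 was called. Ak4, a kinase of the mitochondrial matrix whose gene is known to be induced by hypoxia, went from 4.10 to 10.2 RPKM. It was 2.48-fold higher (interval 2.35 to 2.61, on at least 1956 and 5241 reads), ranked 48 of the 6343 genes, and is on chromosome 4, 101091882 to 101140376, mm9. It overlapped no other gene of the table. The control value lies under 5 RPKM, so the gene entered the counts through the mutant library, where it is high, as Gatm did through the control library.

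Ak3, which works in the same compartment with GTP, measured 12.6 RPKM in control cells and 15.3 RPKM in mutant cells. The ratio was 1.21 (interval 1.16 to 1.26), and Ak3 was not called. Over a long stretch Ak3 overlaps Cdc37l1 on the opposite strand, which went the other way, from 9.18 to 4.64 RPKM, and reads of the stretch they share cannot be assigned to either gene. Ak4 per Ak3 went from 0.325 to 0.665, a log2 difference of 1.04 with a counting standard error of 0.048.

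Ak1, the main cytosolic adenylate kinase of muscle, brain and red cells, was the most abundant member of the control library. It measured 99.8 RPKM there and 105 RPKM in mutant cells, a ratio of 1.05 (interval 1.03 to 1.07, from at least 15128 and 17177 reads). The interval does not include 1, but it covers counting error at most, and Ak1 ranked 1924 of the 6343 genes. Its end overlaps the start of Eng, on the same strand, by 211 bases, and Eng was at 3.18 and 1.51 RPKM. The summed level of Ak1, Ak3 and Ak4 went from 116 to 130.2 RPKM, 1.12-fold higher, and the Ak4 share went from 3.52% to 7.80%. Within the matrix pair of Ak3 and Ak4, the Ak4 share went from 24.5% to 40.0%.

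**Figure D3:**
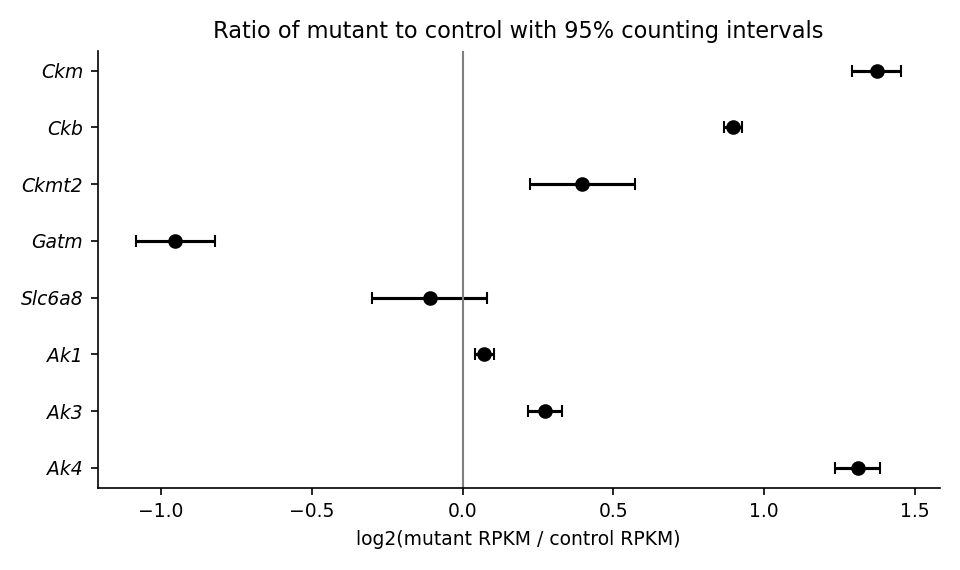
Log2 ratio of mutant to control RPKM, without a pseudocount, for the 8 measured genes, with bars for exact 95% counting intervals and a line at no difference. Ckm, Ak4 and Ckb lie farthest to the right, Gatm lies to the left, and the bar of Slc6a8 crosses the line.

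Of the 4 measured genes of creatine supply, 1 was higher and 3 were lower, beside 67.1% lower over all symbols. The lower genes include Slc6a8, whose direction depended on the setting, and Gatm was the only one called. Gatm, which makes the creatine precursor guanidinoacetate, measured 5.49 RPKM in control cells and 2.84 RPKM in mutant cells, on at least 1345 and 751 reads. It was 1.94-fold lower (interval 1.77 to 2.12). The gene lies on chromosome 2, 122420203 to 122437039, mm9, with no overlapping gene in the table. On the log2(RPKM + 1) scale the Gatm difference was -0.76. With the median of its bin of level (-0.21) subtracted it was -0.54, which is within 1.5-fold, so the 1.5-fold call ended there.

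Slc6a8, the creatine transporter gene on the X chromosome, measured 2.60 and 2.41 RPKM, from at least 455 and 456 reads. The ratio was 0.927, and its interval of 0.813 to 1.06 includes no difference. Relative to genes of its level the log2 difference turned from -0.08 to 0.17, so no direction is given for it. Gamt, which completes creatine from the product of Gatm, went from 8.50 to 6.75 RPKM, 1.26-fold lower, and was not called. Slc16a12, a further creatine carrier, went from 6.52 to 10.3 RPKM, a ratio of 1.57, and its value of 0.58 on the log2(RPKM + 1) scale lay just under the 1.5-fold size. Gamt and Slc16a12 were picked for mention after their values were seen. Gatm per Gamt went from 0.646 to 0.420, a log2 difference of -0.62 with a counting standard error of 0.090.

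Against genes of like expression, 7 of the 8 members lay above the median of their bin of level and 1, Gatm, below it. The distance was 1.36 for Ckm, 1.27 for Ak4, 0.87 for Ckb, 0.52 for Ckmt2, 0.37 for Ak3, 0.17 for Slc6a8 and 0.05 for Ak1, as differences of log2(RPKM + 1) ratios. Slc6a8 is counted here although its direction depended on the setting, and Ak1 lay close to its median.

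**Figure D4:**
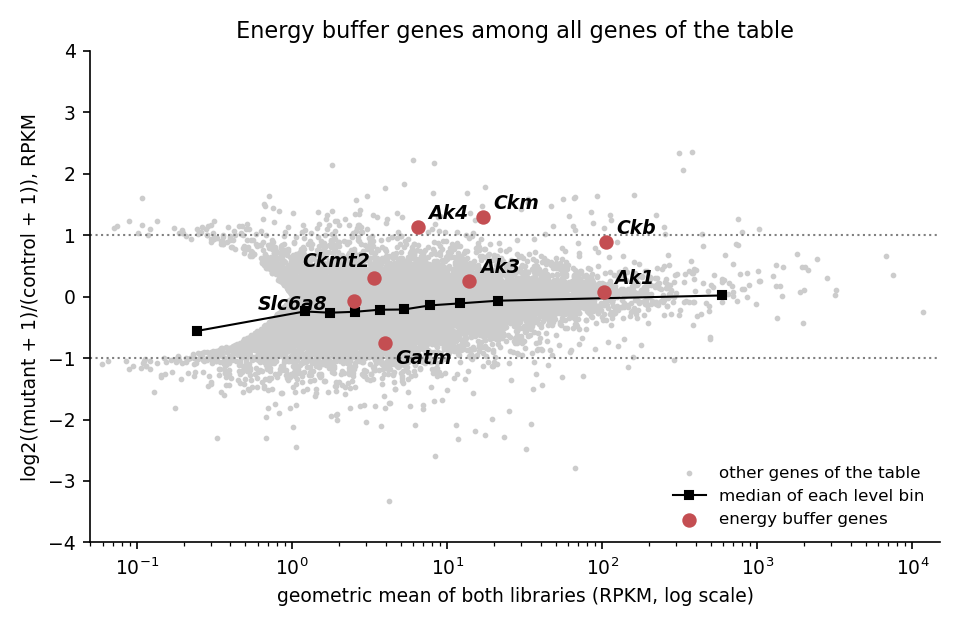
Log2((mutant + 1)/(control + 1)) of RPKM against the geometric mean of both libraries for all 12446 symbols (grey), with the 8 energy buffer genes in red, squares at the median of each bin of level, and dotted lines at 2-fold. Ckm and Ak4 lie above the upper line and Ak1 lies close to the medians.

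The rest of the energy transfer pathway was described from lists of 55 other genes, of which 45 were in the table. Among these, 22 genes were higher and 23 lower, with a median log2 ratio of -0.05 that turned to 0.02 with the values centred and to 0.03 relative to genes of like level. Of the 35 that reached 5 RPKM, 0 were called 1.5-fold higher and 0 were called 1.5-fold lower, against 3.77% and 11.8% of all genes at that level. The count of higher genes was 2, Slc16a12 and Nme3, with a pseudocount of 0.1 RPKM, with the values centred and relative to genes of like level. Without the floor it was 1 (Prkag3), and 4 genes (Cmpk2, Stk11, Slc25a23 and Myom2) were called lower.

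Mitochondrial exchange genes, which carry ATP, ADP and phosphate across the mitochondrial membranes, were higher in 6 of 9 measured cases with a median log2 ratio of 0.12 (0.18 with the values centred). The most abundant, Slc25a4, which encodes the ATP/ADP carrier of heart and muscle, went from 1123 to 1422 RPKM, a ratio of 1.27. Their summed level went from 2338 to 2760 RPKM, 1.18-fold higher, beside 1.93-fold for the creatine kinases.

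Subunits and activators of the AMP-activated kinase had a median of 0.01 over 11 genes, 6 higher and 5 lower, which moved to 0.073 with the values centred and to 0.13 relative to genes of like level. The regulatory subunit gene Prkag1, the most abundant of them, was at 38.1 and 38.3 RPKM. Genes that remove AMP or belong to the purine nucleotide cycle were lower in 6 of 7 measured cases, against 67.1% of all symbols, and 0 of the 5 at 5 RPKM reached 1.5-fold. Their median was -0.23, beside -0.18 over all symbols, and moved to -0.14 with a pseudocount of 5 RPKM and to -0.082 relative to genes of like level. Adsl, an enzyme of that cycle and of purine synthesis, was the exception (46.4 to 52.6 RPKM), and Adssl1, the muscle form of the enzyme before it, measured 47.9 and 44.9 RPKM.

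Other nucleotide kinases had a median of -0.05 over 11 genes, with 5 higher and 6 lower. This median turned to 0.02 both with the values centred and relative to genes of like level. The most abundant of them, the adenosine kinase gene Adk, was at 82.2 and 88.5 RPKM. Genes of the M-band, where muscle creatine kinase docks in the sarcomere, and of its partners were 2 higher and 2 lower of 4 measured. Their median was -0.12, and moved to -0.055 with the values centred. The M-band gene Myom2, described further below, was among the lower genes. Fhl2, a LIM-domain adaptor gene and the most abundant of the list, was at 152 and 154 RPKM.

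**Figure D5:**
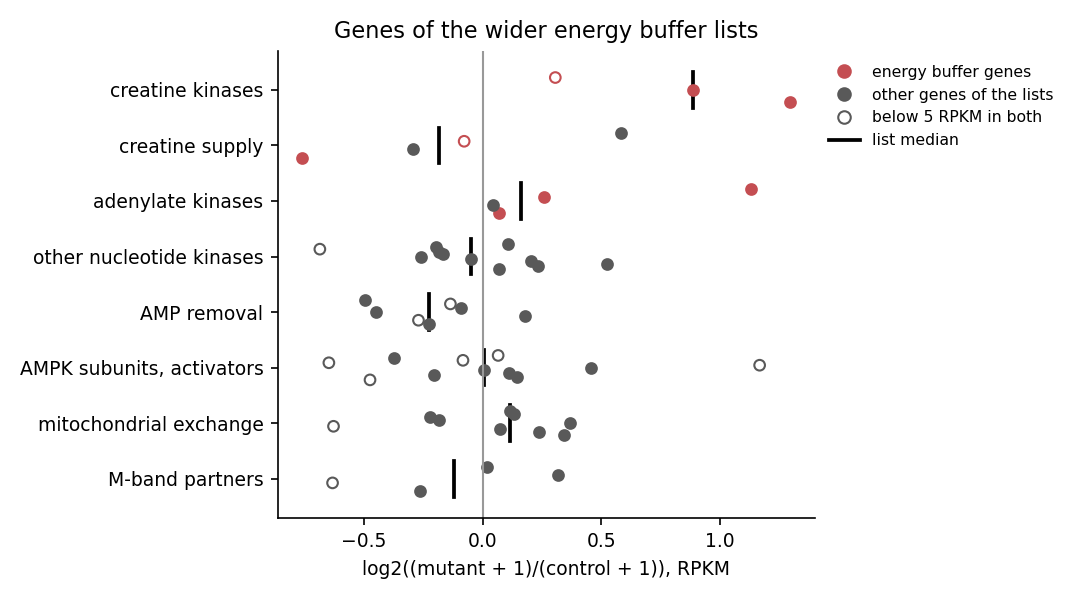
Log2((mutant + 1)/(control + 1)) of RPKM for each measured gene of the wider lists, 1 row per list, with list medians as black bars, energy buffer genes in red and genes below 5 RPKM in both libraries as open symbols. Ckm, Ckb and Ak4 lie apart at the right in their lists, and the other filled symbols lie within 1.5-fold except Gatm.

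Markers of the cell types that the sorted pools could hold differed between the libraries as well. Genes listed for working heart muscle were higher in 10 of 11 cases, against 32.9% of all symbols. Their summed level went from 14382 to 20754 RPKM. Most are contractile genes of heart muscle in general, so these genes do not separate working from pacemaker muscle cells. The most abundant of them, Actc1 and Tnnt2, had ratios of 1.59 and 1.23, and Nppa, the atrial natriuretic peptide gene, 5.13. All 7 measured genes of the pacemaker list were lower, against 67.1% of all symbols, but 1 of them is Isl1, the gene removed by design. The other 6 went from 57.8 to 27.1 RPKM summed. The most abundant, Shox2, was at 14.8 and 8.64 RPKM, and Cacna2d2, Cacna1d and Tbx3 were called 2-fold lower. Hcn4 itself was below 5 RPKM in both libraries, at 1.99 and 0.541 RPKM, and was not called. Smooth muscle is a further muscle type in which Ckb is known to be active. Genes listed for it were higher in 5 of 7 cases and lower in 2 (983 to 1567 RPKM summed), and they need not come from smooth muscle cells. The largest part of this sum was Acta2 (566 to 1008 RPKM). Tagln was called 2-fold higher (31.8 to 71.9 RPKM) and Mylk 2-fold lower (5.71 to 0.670 RPKM), so the list had no single direction.

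Red cell genes, from a cell type rich in Ak1 enzyme, were lower in 10 of 10 measured cases, and their sum went from 399 to 69.0 RPKM, beside a ratio of 1.05 for Ak1. Macrophage genes were lower in 7 of 7 cases (42.2 to 7.70 RPKM summed). So were fibroblast and cushion mesenchyme genes in 10 of 11 (716 to 485 RPKM) and endothelial genes in 6 of 6 (21.4 to 10.0 RPKM). Over all symbols, 67.1% were lower. Only 3 macrophage and 2 endothelial genes reached 5 RPKM. Relative to genes of like level, the macrophage median moved from -1.06 to -0.82 and the endothelial median from -0.76 to -0.37. Neuronal and neural crest genes, a type in which Ckb is abundant, were 3 higher and 2 lower, with sums of 20.2 and 19.1 RPKM. These near-equal sums hold opposite differences. Only 2 of the 5 measured genes reached 5 RPKM, Nefl, which was higher (3.36 to 7.65 RPKM), and Ednrb, which was lower (10.9 to 6.76 RPKM). No measured marker was at 0. Only genes that reach 1 RPKM in a library are listed, so this does not show which cell types were present. Klf1, Fcgr3, Tyrobp, Aif1 and Cdh5 of the red cell, macrophage and endothelial lists were not measured. Nor were Sox10, Stmn2, Prph and Snap25 of the neuronal list. The part of these differences in the values of the energy buffer genes was not tested, and in such bulk libraries fewer cells of a type and less RNA per cell cannot be told apart.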

How the data were processed

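The study sequenced RNA from sorted sinoatrial node cells, with 1 pooled library per genotype. The submitters' processing notes name Trim Galore, FastQC, TopHat2, Bowtie2 and the build mm9, and do not say which tool computed the values per gene. The header names no unit. The deposited values were taken as RPKM. For 284 small RNA genes with 1 exon, value times length was divided by a step fitted to the same genes. This gave whole numbers within 0.01 in 284 control and 276 mutant cases. Such steps show read numbers divided by length, while the scaling to library total is assumed. Under that assumption the steps gave 110117186 and 119018888 reads in all. The deposited log2 fold change is the plain log2 ratio of mutant to control values, and the signed fold, a score deposited by the authors, was not used. Every listed gene reaches 1 RPKM in a library, so a gene under this in both is not listed.

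Log2 ratios used a pseudocount of 1 RPKM, and a repeated symbol was represented by the row with the highest mean. Read numbers per gene are the smallest that give both values, so they are lower limits. Ratio intervals are exact conditional binomial (Clopper-Pearson). Levels were cut into 10 equally filled bins. The script was tested on simulated data. Members, gene lists and motifs were chosen with earlier results of these data known. The rule for named genes took all members, the highest expressed gene of each wider list or those called at 1.5-fold, leading markers and overlapping genes. Gamt, Slc16a12, Adssl1, Prkag2, Prkag3, Nme3, Stk11, Cmpk2, Slc25a23, Myom2 and Hcn4 were named beyond it, after their values were seen. Some listed genes are not reported here, while list counts, sums and medians include them. Alternatives were pseudocounts of 0.1 and 5 RPKM, median centring, subtraction of the level median, no floor, and the other row of a repeated symbol. Python 3.11.15, numpy, pandas and scipy were used.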

Additional observations from a re-analysis of the deposited data

How the results depend on the processing

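No paired analysis was possible because each genotype has 1 library, and for the same reason no library could be left out. With a pseudocount of 5 RPKM the log2 ratio was 1.06 for Ckm, 0.85 for Ckb, 0.74 for Ak4 and -0.42 for Gatm, so 1 member (Ckm) was called 2-fold higher in place of 2, and 0 members were called 1.5-fold lower in place of 1. With 0.1 RPKM it was 1.29 for Ak4 and -0.93 for Gatm. Centring on the median of well expressed genes (5 RPKM in both) gave 0.95 for Ckb, 0.14 for Ak1 and 0.32 for Ak3. Subtracting the median of the same bin of level gave 0.52 for Ckmt2, 0.37 for Ak3, 1.27 for Ak4 and -0.54 for Gatm, ended the 1.5-fold call of Gatm (0 lower) and reversed Slc6a8 to 0.17. The median of the wider genes that are not members turned to 0.020 with centring and 0.027 with the level median subtracted, that of the other nucleotide kinases to 0.020 in both, and that of the creatine supply list to 0.0097 with the level median subtracted. The median of all marker genes was -0.84, and -0.33 with a pseudocount of 5 RPKM. The count of wider genes called 1.5-fold higher was 2 (Slc16a12 and Nme3) in place of 0 with a pseudocount of 0.1 RPKM, with centring and with the level median subtracted. Without a floor it was 1 (Prkag3), and 4 (Cmpk2, Stk11, Slc25a23 and Myom2) were then called lower in place of 0. These names were chosen after their values were seen. The shifts follow from how each alternative is built, since a larger pseudocount shrinks the ratios of low genes and the subtracted medians are below 0 for most levels. Of 80 medians of the 16 single lists under the alternatives, not counting the pooled ones, 77 kept their sign. Among the 8 members the depth limits Slc6a8 most, at 455 and 456 reads, and some wider genes rest on fewer.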

Other observations

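Prkag3, which encodes the regulatory subunit of the AMP-activated kinase found mainly in skeletal muscle, measured 0.553 RPKM in control cells and 2.48 RPKM in mutant cells, a ratio of 4.49 (interval 3.81 to 5.32, from at least 172 and 835 reads). It lies below 5 RPKM in both libraries and was singled out after its value was seen. The related subunit genes Prkag1 and Prkag2 had ratios of 1.00 and 1.41. Stk11, which encodes the kinase LKB1 that activates the AMP-activated kinase, was at 4.56 and 2.55 RPKM, a ratio of 0.559 (interval 0.482 to 0.648), also chosen after its value was seen.

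Slc25a23, a carrier of ATP and magnesium in exchange for phosphate, and Myom2, an M-band gene, were also picked after their values were seen. Both lay below 5 RPKM and were lower in the mutant library, at 1.59 and 0.677 RPKM and at 2.67 and 1.37 RPKM. The more abundant Slc25a4 had a ratio of 1.27.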
